A study of Mus musculus with 8 samples.

Results

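Ppara, Cpt1a, Cpt2, Acadm, Ehhadh, Pdk4, Acot1 and Cd36 are 8 genes of fatty acid oxidation, taken from the 32285 genes of the files by their symbols. Their levels were measured by single-nucleus RNA-seq in the kidneys of 8 males on the C57BL/6J background: 2 Ctrl and 2 cKOt mice killed at ZT4, and as many at ZT16. Both Bmal1 (Arntl) alleles were of the lox type in all 8 mice, which received doxycycline (2 mg/ml with 20 mg/ml sucrose in the drinking water) for 2 weeks from 8 weeks of age, and the kidneys were taken at 14 weeks. Only cKOt mice had the Pax8-rtTA and LC-1 transgenes as well, by which doxycycline switches on Cre recombinase in renal tubules. Ctrl littermates lack these transgenes, so that effects of the transgenes alone cannot be told apart from those of the deletion. ZT4 lies 4 h after lights on, in the resting phase, and ZT16 lies 4 h after lights off, in the active phase. Feeding was ad libitum, and the lights followed a 12 h cycle. The question was at which level these genes stand in each kidney segment, and whether that level moves with time of day or with the loss of the tubular clock.

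The kidney proximal tubule covers most of its energy need by burning fatty acids. Cd36 carries long-chain fatty acids into the cell. Cpt1a joins them to carnitine at the outer mitochondrial membrane, and Cpt2 turns these esters back to acyl-CoA at the inner one. Acadm opens the beta-oxidation of medium-chain acyl-CoA. Ehhadh carries out later steps of beta-oxidation in peroxisomes, Acot1 splits acyl-CoA into free acid and coenzyme A, and Pdk4 blocks pyruvate dehydrogenase, which turns the cell from glucose to fat. Ppara encodes PPAR alpha, a nuclear receptor that fatty acids activate in fasting, and all the others are known among its targets, in liver above all.

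PPAR alpha binds DNA with its partner RXR at direct repeats of AGGTCA spaced by 1 base, and the clock protein BMAL1 binds CACGTG. All 8 genes matched an entry of RefSeq promoters on GRCm38.p6, of which the 250 bases before the start were searched on both strands. AGGTCA occurred in 3 of the 8 genes (Cpt1a, Acadm and Cd36) and in 14% of 32851 promoters. The full direct repeat (AGGTCA, any 1 base, AGGTCA), which holds the single site, occurred in 0 of 8 and in 0.0335% of promoters. With up to 2 mismatches it occurred in 1 of 8 (Cd36, 63 to 51 bases before the start) and in 3.24% of promoters. CACGTG occurred in 0 of 8 and in 6.02% of promoters. Below are the 3 promoters with a match, with matches to AGGTCA or to the repeat in capitals (read here as the opposite strand, TGACCT), and that of Pdk4, which holds none and whose transcript level is the one that passed the test below.
Cpt1a, chr19:3323051-3323300, plus strand: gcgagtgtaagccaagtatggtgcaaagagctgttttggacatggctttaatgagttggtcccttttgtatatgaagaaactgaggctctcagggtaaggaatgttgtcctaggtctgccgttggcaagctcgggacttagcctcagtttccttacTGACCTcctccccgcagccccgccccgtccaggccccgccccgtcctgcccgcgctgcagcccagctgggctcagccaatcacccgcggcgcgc
Acadm, chr3:153944644-153944893, minus strand: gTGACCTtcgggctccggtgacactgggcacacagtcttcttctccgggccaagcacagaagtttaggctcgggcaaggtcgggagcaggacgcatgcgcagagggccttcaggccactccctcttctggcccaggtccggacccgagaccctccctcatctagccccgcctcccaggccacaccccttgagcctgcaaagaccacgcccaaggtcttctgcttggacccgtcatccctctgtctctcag
Cd36, chr5:17835897-17836146, minus strand: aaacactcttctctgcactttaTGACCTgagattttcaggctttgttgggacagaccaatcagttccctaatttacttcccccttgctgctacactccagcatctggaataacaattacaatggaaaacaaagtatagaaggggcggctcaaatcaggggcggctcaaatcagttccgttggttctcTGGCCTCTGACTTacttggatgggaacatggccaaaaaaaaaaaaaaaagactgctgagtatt
Pdk4, chr6:5496279-5496528, minus strand: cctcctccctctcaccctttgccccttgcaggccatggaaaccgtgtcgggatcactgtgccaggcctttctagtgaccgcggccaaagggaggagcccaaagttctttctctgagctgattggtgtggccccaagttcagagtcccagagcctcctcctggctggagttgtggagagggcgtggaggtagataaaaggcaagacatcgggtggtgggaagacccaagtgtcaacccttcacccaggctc
A match in these 250 bases is a description of the letters and says nothing of binding.

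After quality filters, 81391 of 82784 barcodes remained as nuclei, 8758 to 10975 per library, with 36548873 to 54500820 unique molecular identifiers (UMIs, 1 for each captured transcript) per library. Any 2 libraries shared 18 to 42 barcodes, at most 0.422% of the smaller one. Scrublet marked 4.83% to 5.92% of the nuclei of a library as doublets, which were kept. Nuclei were clustered without the 8 genes and the other genes of fatty acid oxidation, and 34 of 49 clusters were named by markers, giving 21 classes with 67029 nuclei. The proximal clusters stood apart by library. They included 5 clusters named proximal convoluted tubule (PCT, 12955 nuclei) and 2 named proximal straight tubule (PST, 3919 nuclei). Another 6 clusters scored best for PST (5 clusters) or PCT (1 cluster) but under the limit for a name (9259 nuclei, here called intermediate proximal nuclei). Levels are given in CPM (the usual counts scaled for depth, here to the UMIs of protein-coding genes in the class and library). In the intermediate nuclei the PST markers summed to 3310 to 4388 CPM, between PST and PCT, whereas the PCT markers summed to 740 to 1150 CPM, far below PCT and overlapping PST. Of PST cluster 13, 2088 of 2211 nuclei came from cKOt mice, and of PST cluster 19, 1662 of 1708 came from Ctrl mice. Of PCT cluster 10, 2439 of 2487 came from Ctrl mice, and of PCT cluster 4, 2857 of 3247 from cKOt mice. In the intermediate nuclei, 1066 of 1089 nuclei of cluster 28 were from cKOt ZT4 replicate 2, 1032 of 1102 of cluster 27 from Ctrl ZT16 replicate 1, and 1108 of 1503 of cluster 22 from Ctrl ZT16 replicate 2. Each class therefore compares different clusters between groups, and tests were also run on all proximal nuclei in 1 sum. Counts of Arntl include reads outside the deleted part and check nothing about the deletion: over all proximal nuclei they stood at 13.4 and 17.7 CPM in Ctrl ZT4 and at 322 and 212 in cKOt ZT4. The clock output gene Dbp stood at 41.5 and 24.3 CPM in proximal nuclei of Ctrl ZT4 and at no more than 2.4 in the other 6 libraries.

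The 8 genes had their highest mean levels in PST (Acadm, Ehhadh, Acot1 and Cd36), in the intermediate nuclei (Cpt2), in PCT (Ppara) and in DCT1, the first part of the distal convoluted tubule (Cpt1a and Pdk4). Levels are mean CPM ± SD over the 8 libraries, for 19 named classes and the intermediate proximal nuclei. Ppara was highest in PCT (745 ± 273), followed by the intermediate nuclei (533 ± 101), PST (288 ± 37.6) and urothelium (UT, 147 ± 77.1), and lowest in podocytes (28.9 ± 19.0). Cpt1a had its highest mean levels outside the proximal tubule. It stood at 333 ± 64.2 in the first and 300 ± 36.5 in the second part of the distal convoluted tubule (DCT1, DCT2). The thick ascending limb (TAL) had 281 ± 43.8 and the connecting tubule (CNT) 260 ± 50.0. The proximal classes had a mean of 223 in the intermediate nuclei, 186 ± 65.8 in PCT and 142 ± 31.8 in PST. CNT lay above the intermediate nuclei in 5 of 8 libraries. The thin ascending limb had the least Cpt1a (51.4 ± 14.2). Its partner Cpt2 varied little, from 41.3 ± 9.84 in the intermediate nuclei and 38.7 ± 8.23 in PST down to 15.0 ± 6.55 in smooth muscle and juxtaglomerular cells. These levels put the receptor gene first in PCT and the first step of the carnitine shuttle first in DCT1.

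Acadm was at 720 ± 253 CPM in PST, followed by the thin descending limb (207 ± 22.1), and ranged from 75.6 ± 23.8 to 184 ± 27.5 in the other 18 classes, PCT included (113 ± 12.0). Ehhadh had 347 ± 340 CPM in PST, 263 ± 238 in the intermediate nuclei, 101 ± 78.3 in PCT and 26.8 ± 17.2 to 52.1 ± 31.3 in the other classes. In PST and in the intermediate nuclei its SD was nearly as large as its mean. Acot1 was low, at 23.7 ± 9.98 CPM in PST, 12.3 ± 10.6 in the thin descending limb and at most 9.24 ± 3.36 elsewhere. Its counts are uncertain, because its paralogs are nearly identical in sequence and reads could be split among them. Cd36 was at 614 ± 109 CPM in PST and 436 ± 102 in the intermediate nuclei. It was also found in myeloid cells (259 ± 100) and vascular cells (255 ± 46.2), where it serves as a scavenger receptor and in fatty acid transport. PCT, with 44.7 ± 8.70 CPM of Cd36, lay within the range of the other 15 classes (29.0 ± 6.36 to 71.6 ± 45.3). RNA free in the droplets was not removed, so that levels within such a common low range may hold no expression at all.

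Pdk4 followed another order. It was highest in DCT1 (43.4 ± 21.1 CPM), TAL (37.4 ± 27.2) and the thin descending limb (35.4 ± 40.4), followed by PST (25.4 ± 16.0), whereas PCT had 3.51 ± 2.84. Single libraries carried some of these means: the thin descending limb read 124 CPM in cKOt ZT4 replicate 2 and 7.5 to 62.2 in the others, on 44 UMIs in all, and lay above PST in 3 of 8 libraries (log2 difference -0.01 ± 1.51). In TAL the libraries of cKOt ZT4 stood at 77.4 and 82.3 CPM and the other 6 at 10.6 to 30.9. In macula densa nuclei 0 UMIs of Pdk4 were counted over the 8 libraries (0 of 175 nuclei, which allows a share of nuclei with a UMI of up to 1.71%). This limits the nuclei in which a UMI is seen at this depth, not those that express the gene. Nuclei with at least 1 UMI of Pdk4 made up 13.3% in DCT1 (median depth 4688 UMIs) and 0.458% in myeloid cells (median depth 1833.5 UMIs). For Cd36 the shares were 85.4% in PST (median 7237 UMIs) and 10.7% in the thin ascending limb (median 3961 UMIs). Neighbours in the order of each gene were compared by an exact two-sided sign-flip permutation test of log2(CPM + 1) within the 8 libraries, 152 pairs in all. Of these, 14 had p under 0.05 and 0 had an adjusted p under 0.05 (the smallest was 0.2375). The smallest p this design allows is 0.0078 (exact test), and 5 pairs reached it: PST over the thin descending limb for Acadm, PST over the intermediate nuclei and vascular over smooth muscle cells for Cd36, and the intermediate nuclei over PST and DCT2 over the cortical collecting duct for Ppara. Acadm was higher in PST than in the thin descending limb by 1.71 ± 0.62 (log2 difference, SD), and Cd36 in vascular than in smooth muscle cells by 2.01 ± 0.89, in 8 of 8 libraries each. Over 152 pairs, at least 24 would have to reach the smallest p for any to pass the adjusted limit, so the count of 0 says little of whether neighbours differ.

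**Figure D1:**
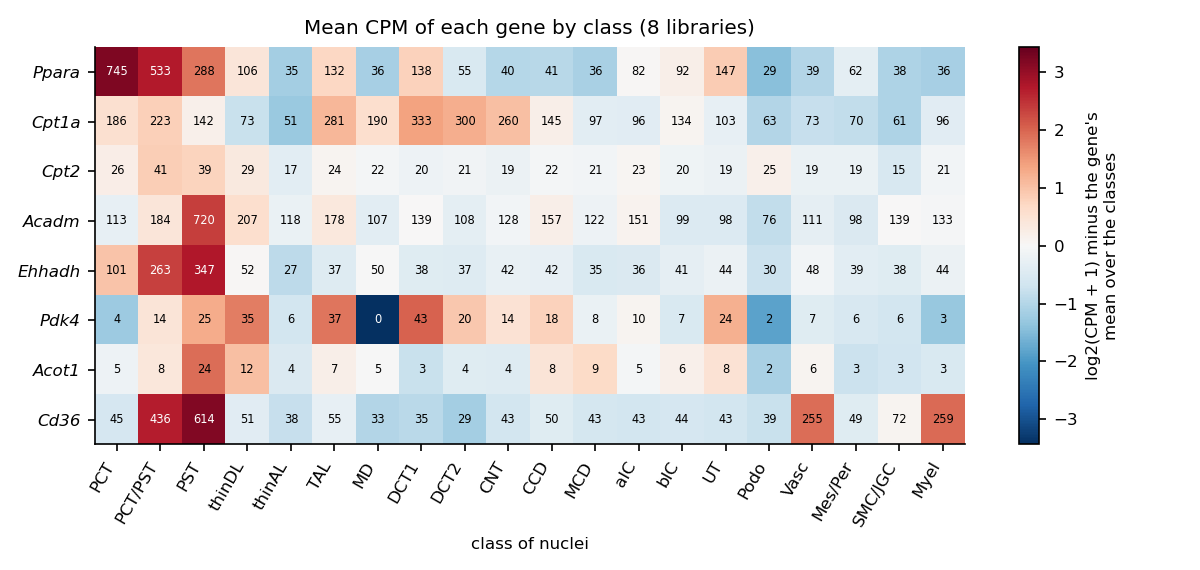
Mean CPM over the 8 libraries (numbers in the cells) of the 8 genes (rows) in 20 classes of nuclei (columns, PCT/PST being the intermediate proximal nuclei); the colour gives log2(CPM + 1) minus the gene's own mean over the classes. Acadm, Ehhadh, Acot1 and Cd36 are reddest in PST, Ppara in PCT, and Cpt1a and Pdk4 in DCT1.

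Between the named proximal classes, most of the genes were higher in PST than in PCT of the same kidney. The share of all genes that differ between these classes is not given here. The number of genes that differ is therefore no result about the 8 genes as a set. This comparison was chosen after the classes had been named, and adjusted p-values are over the 8 genes. It leaves out the intermediate nuclei, and the limit for a name was not varied in it. In those nuclei the mean CPM were 184 for Acadm, 7.59 for Acot1 and 13.6 for Pdk4. These lie between PST (720, 23.7 and 25.4) and PCT (113, 4.74 and 3.51), nearer to PCT. For Cd36, Ehhadh and Cpt2 they were 436, 263 and 41.3, nearer to PST (614, 347 and 38.7) than to PCT (44.7, 101 and 26.4). Cd36 was 13.5-fold higher in PST than in PCT (log2 difference 3.75 ± 0.13 SD over libraries), Pdk4 6.05-fold (2.60 ± 0.65), Acadm 5.95-fold (2.57 ± 0.63) and Acot1 4.35-fold (2.12 ± 0.29), in 8 of 8 libraries each (exact sign-flip permutation test, two-sided, adjusted p = 0.0125 for each). Ppara went the other way and was 2.48-fold lower in PST, in 8 of 8 libraries (adjusted p = 0.0125, same exact test). Ehhadh (2.65-fold) and Cpt2 (1.44-fold) were higher in PST in 7 of 8 libraries, with adjusted p = 0.0357 and 0.0312 in the exact test. For Cpt1a the log2 difference was -0.35 ± 0.42, with an adjusted p of 0.0547 in the exact test. The calls of Ehhadh and Cpt2 depended on which libraries entered, though 7 libraries allow no p below 0.0156 in this exact test. Leaving out 1 library gave 2.38-fold to 3.31-fold for Ehhadh and 1.38-fold to 1.56-fold for Cpt2, higher in PST each time. That of Ehhadh held only without cKOt ZT4 replicate 2 (adjusted p = 0.0179, exact test over 7 libraries), and leaving out any other library gave 0.0536 to 0.0714. That of Cpt2 held without replicate 2 of Ctrl ZT4 (adjusted p = 0.0417, exact test) or of cKOt ZT4 (0.0179), and leaving out any of the other 6 libraries gave 0.0536 to 0.0625. Cpt1a passed without Ctrl ZT16 replicate 2 (adjusted p = 0.0208, exact test) and without doublets (0.0391). The classes were named by their markers, so the marker sums only describe them: PCT markers stood at 6362 to 9629 CPM in PCT and 456 to 1047 in PST, and PST markers at 10248 to 15117 in PST and 363 to 573 in PCT.

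Time of day and genotype were compared with edgeR's quasi-likelihood test on counts summed per class and library, in 4 contrasts (ZT16 against ZT4 in Ctrl and in cKOt, cKOt against Ctrl at ZT4 and at ZT16). Each group enters 2 of the contrasts, so these share samples. A gene was called at a Benjamini-Hochberg adjusted p under 0.05 over all genes tested. In PCT, 0 of the 8 genes were called in any contrast, where 0.72%, 0.0077%, 0.842% and 0.21% of all genes tested were called, in the order given above. In PST, 0 of 8 were called as well, beside 0.0499%, 0%, 0.44% and 0.59% of all genes. At an unadjusted p under 0.05 the numbers were 1, 2, 1 and 1 of 8 in PCT, beside 11.5%, 8.56%, 8.52% and 6.05% of all genes, and 1, 1, 0 and 4 of 8 in PST, beside 6.97%, 4.51%, 7.34% and 9.33%. DESeq2 called 1, 1, 0 and 0 in PCT and 0 in PST. All shares of all genes printed here are those of edgeR. The shares that DESeq2 called are not given, so its counts cannot be set beside a background. Over all proximal nuclei 0 of 8 were called by edgeR, where 0.321%, 0%, 0.751% and 0.433% of all genes were, with 2, 2, 1 and 4 of 8 at an unadjusted p under 0.05, beside 10.4%, 6.92%, 8.53% and 7.75% of all genes. DESeq2 called 1 there, Cpt1a between genotypes at ZT16.

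Cpt1a was the gene behind the DESeq2 calls. In PCT it stood at 260 and 276 CPM in Ctrl ZT4 and at 174 and 143 in Ctrl ZT16. In cKOt it was 166 and 247 CPM at ZT4 and 105 and 121 at ZT16. Both genotypes were thus lower at ZT16 than at ZT4, without overlap, and both libraries of cKOt ZT16 were the lowest of all 8. The log2 fold change of ZT16 over ZT4 was -0.76 ± 0.20 (SE) in Ctrl and -0.82 ± 0.20 in cKOt, with edgeR adjusted p of 0.15 and 0.235, while DESeq2 gave 0.045 and 0.0463. The contrast in Ctrl also passed in edgeR without cKOt ZT4 replicate 1 (adjusted p = 0.0473) or replicate 2 (0.05). Over all proximal nuclei Cpt1a read 202 and 203 CPM in Ctrl ZT16 against 113 and 126 in cKOt ZT16, a log2 fold change of -0.73 ± 0.16 (edgeR adjusted p = 0.161, DESeq2 0.0228). In PST the same contrast gave 170 and 181 CPM against 98.0 and 101, a log2 fold change of -0.80 ± 0.18 (edgeR adjusted p = 0.0956). With a block for the replicate number within each time point, chosen after seeing the data, edgeR called this contrast in PST (adjusted p = 0.03) and over all proximal nuclei (0.0465). The edgeR test of whether time acts differently in the genotypes gave a difference of -0.06 ± 0.28 (log2) for Cpt1a in PCT (adjusted p = 0.999).

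Ehhadh and Acadm differed widely between mice of 1 group. In PST, Ehhadh stood at 437 and 80.6 CPM in Ctrl ZT4, at 358 and 63.5 in cKOt ZT4, at 86.5 and 1069 in Ctrl ZT16 and at 165 and 514 in cKOt ZT16. Every pair of replicates was thus at least 3.10-fold apart, and the pair of Ctrl ZT16 was 12.4-fold apart. Of 11755 genes with at least 5 counts in both libraries of that pair, 0.0510% were as far apart. The groups overlapped in every contrast, and the log2 fold change of ZT16 over ZT4 in Ctrl ranged from -1.68 to 2.85 when 1 library was left out. Without Ctrl ZT16 replicate 2, whose Ehhadh was highest in PST, PCT (285 CPM) and the intermediate nuclei (792 CPM), the direction was that of -1.68. This library had the highest Ehhadh in 17 of 20 classes, also outside the tubule, with 101.9 CPM in vascular cells (31.8 to 49.8 in the other libraries) and 90.0 in mesangial cells and pericytes (25.4 to 40.6). Within its PST nuclei, markers of the thin descending limb summed to 349 CPM (127 to 175 in the others) and markers of the medullary collecting duct to 218 (29.96 to 132), and none of these markers was at 0 over the libraries. Both lists hold Slc14a2, so these sums are not separate. The part of these markers in the Ehhadh level of this library was not tested.

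Acadm in PST read 913, 970, 801, 968 and 837 CPM in 5 libraries (Ctrl ZT4 replicate 1, cKOt ZT4 replicate 1, Ctrl ZT16 replicate 2 and both of cKOt ZT16). The other 3 libraries had 415 (Ctrl ZT4 replicate 2), 434 (cKOt ZT4 replicate 2) and 417 (Ctrl ZT16 replicate 1). These 3 were also the lowest for Ehhadh in PST. The sum of the 5 PST markers was lowest in the same 3, at 11503, 11405 and 10248 CPM, against 12004 to 15117 in the others, and its part in these values was not tested. Outside PST this gap was not seen: Acadm spanned 94.3 to 126 CPM in PCT and 161 to 195 in TAL.

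**Figure D2:**
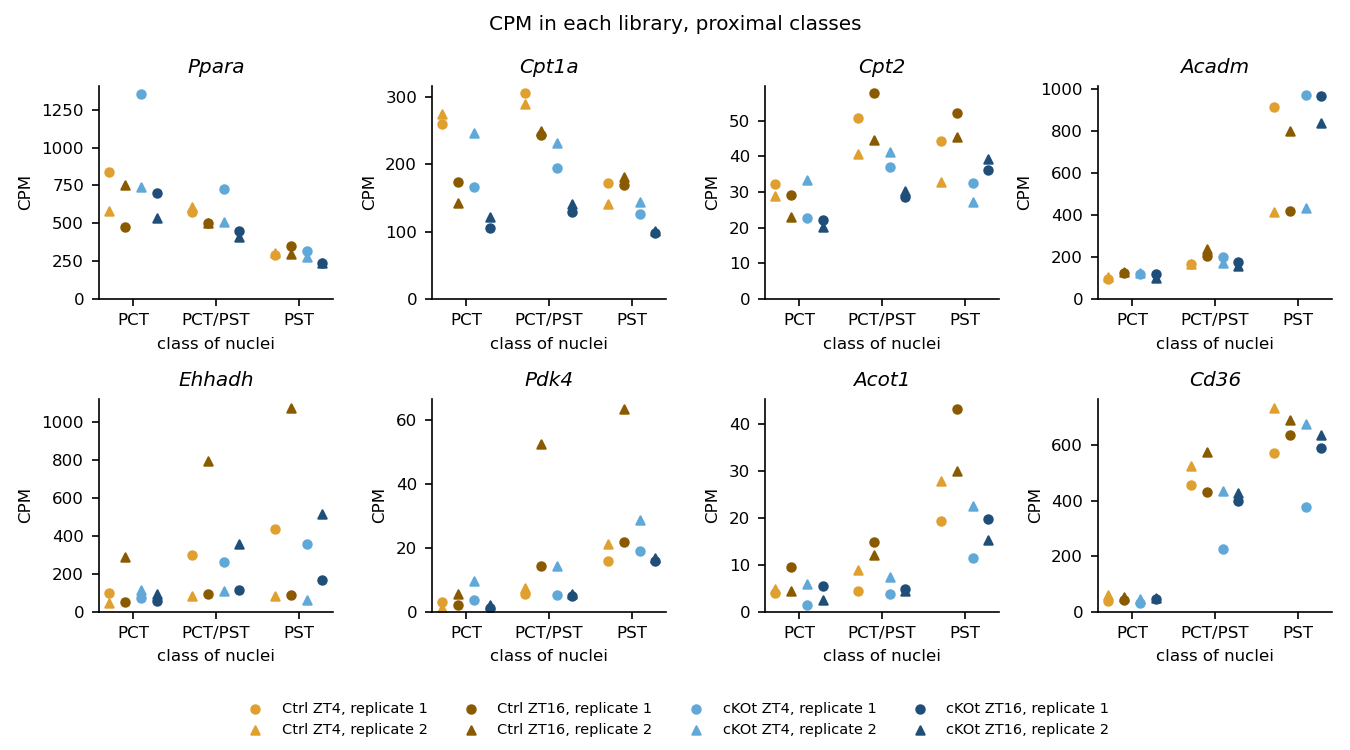
CPM (y axis, from 0) of each gene in PCT, the intermediate proximal nuclei (PCT/PST) and PST (x axis); each point is 1 library, with colours for the 4 groups and circles and triangles for replicates 1 and 2. Acadm in PST falls into 3 libraries at 415 to 434 CPM and 5 at 801 to 970, Ehhadh of Ctrl ZT16 replicate 2 lies far above its pair in each class, and Cpt1a of cKOt ZT16 is lowest in each class.

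The remaining genes were not called by edgeR in the proximal classes either. Ppara in PCT ranged from 472 to 1351 CPM over the 8 libraries, and both values came from groups whose other library lay between (750 in Ctrl ZT16, 736 in cKOt ZT4). The library with 1351 CPM, cKOt ZT4 replicate 1, had the highest Ppara in 13 of 20 classes. In PST Ppara spanned 236 to 349 CPM, with 239 and 236 in cKOt ZT16 below all other libraries (log2 fold change against Ctrl -0.42 ± 0.17, edgeR adjusted p = 0.469). Cd36 in PST had its lowest value in cKOt ZT4 replicate 1 (377 CPM) and ranged from 571 to 733 in the other 7 libraries. Cpt2 over all proximal nuclei stood at 45.8 and 37.9 CPM in Ctrl ZT16 and at 27.8 and 27.6 in cKOt ZT16, a log2 fold change of -0.56 ± 0.15 (edgeR adjusted p = 0.246). Acot1 in PST read 43.3 and 30.02 CPM in Ctrl ZT16 and 19.8 and 15.2 in cKOt ZT16, a log2 fold change of -1.03 ± 0.32 (edgeR adjusted p = 0.297, and 0.0312 with the block within each time point). As a set, 7 of the 8 genes had a log2 fold change below 0 for cKOt against Ctrl at ZT16 in PST, with a median of -0.60, where the median of all genes was 0.01. In PCT 6 of 8 were below 0 (median -0.36), and over all proximal nuclei 7 of 8 were (median -0.64). Leaving out 1 library moved Ehhadh at ZT16 from -1.89 to 2.1 (log2) in PST, and from -1.97 to 1.42 over all proximal nuclei. Its sign in PST turned without Ctrl ZT16 replicate 2, which had the highest Ehhadh and Pdk4 there. In PST, Cd36 ran from -0.21 to 0.06 and Pdk4 from -1.996 to -0.313, while Cpt1a, Cpt2, Acot1 and Ppara stayed below 0. The counts and medians of the set have no such range here. At ZT4 the medians were 0.06 in PCT and -0.27 in PST. In those contrasts the main edgeR test called none of the 8 genes. DESeq2 called Cpt1a at ZT16 over all proximal nuclei, and the block within each time point called Cpt1a and Acot1 at ZT16 in PST and over all proximal nuclei. With no filter on low counts edgeR called Cpt1a, Ehhadh, Pdk4 and Acot1 at ZT16 in PST, and in PCT Ehhadh at ZT16 and Pdk4 at ZT4. The shares of all genes called under these alternatives are not given here, so such calls cannot be set beside a background.

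Pdk4 in TAL was the 1 call among the 8 genes, of cKOt against Ctrl at ZT4. Adjustment was within each class and contrast, not over all of them, and 0% to 1.3% of all genes were called in these. A single call over so many tests is therefore no result about the 8 genes as a set. It stood at 30.1 and 10.6 CPM in Ctrl ZT4 and at 77.4 and 82.3 in cKOt ZT4, so that both cKOt libraries lay above all the others. At ZT16 the values were 15.8 and 27.7 CPM in Ctrl and 24.2 and 30.9 in cKOt, so that the genotypes overlapped there. The level in cKOt ZT4 was 4.20-fold that in Ctrl ZT4 (log2 fold change 2.07 ± 0.35 SE, edgeR adjusted p = 0.00922), beside 0.52% of all genes called in this contrast of TAL, over 1246 UMIs of Pdk4 in the class. In the other contrasts of TAL 0 of 8 genes were called, where 1.3% (time in Ctrl), 0.517% (time in cKOt) and 0.185% (genotype at ZT16) of all genes were. The unadjusted p was under 0.05 for 1, 1 and 0 of the 8 genes there, beside 12%, 10.3% and 5.33% of all genes, and DESeq2 called 0. ZT16 against ZT4 within cKOt gave a log2 fold change of -1.53 ± 0.33 (edgeR adjusted p = 0.0536, and 0.00701 to 0.0248 when any 1 of the 4 Ctrl libraries was left out), and the genotype contrast at ZT16 gave 0.35 ± 0.35 (edgeR adjusted p = 1.000). The test of whether time acts differently in the genotypes gave -1.72 ± 0.49 (log2) for Pdk4 in TAL (edgeR adjusted p = 0.869). The call rests on the pair of Ctrl ZT4 libraries, which were 2.84-fold apart. Without Ctrl ZT4 replicate 2 the log2 fold change was 1.41 (2.67-fold, edgeR adjusted p = 0.0996), without Ctrl ZT4 replicate 1 it was 2.91 (7.5-fold, edgeR adjusted p = 0.000508), and leaving out any of the other 6 libraries kept the call (0.00295 to 0.0484). DESeq2 gave 1.99 (adjusted p = 0.107) with all libraries.

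Adipocyte markers moved with the same libraries. Of 60 nuclei in the cluster named for adipocytes, 19 and 34 were from the 2 libraries of cKOt ZT4 and no other library had more than 3. The summed level of the 6 adipocyte markers over TAL nuclei was 3.76 and 12.3 CPM in cKOt ZT4 and 0.633 to 1.35 CPM in the other 6 libraries, and none of the 6 was at 0. Their part in the level of Pdk4 was not tested. Other tubule classes, which were not tested, are given as levels: Pdk4 stood at 27.8 and 33.0 CPM in CNT of cKOt ZT4 and at 20.8 and 9.67 in Ctrl ZT4, whereas in DCT1 both Ctrl ZT4 libraries (66.1 and 66.4) lay between those of cKOt ZT4 (34.3 and 69.5). Replicate 2 of cKOt ZT4 had the highest Pdk4 in 14 of 20 classes, so its high level was not particular to TAL. In PST and over all proximal nuclei the highest Pdk4 was in another library, Ctrl ZT16 replicate 2 (63.5 and 39.8 CPM).

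**Figure D3:**
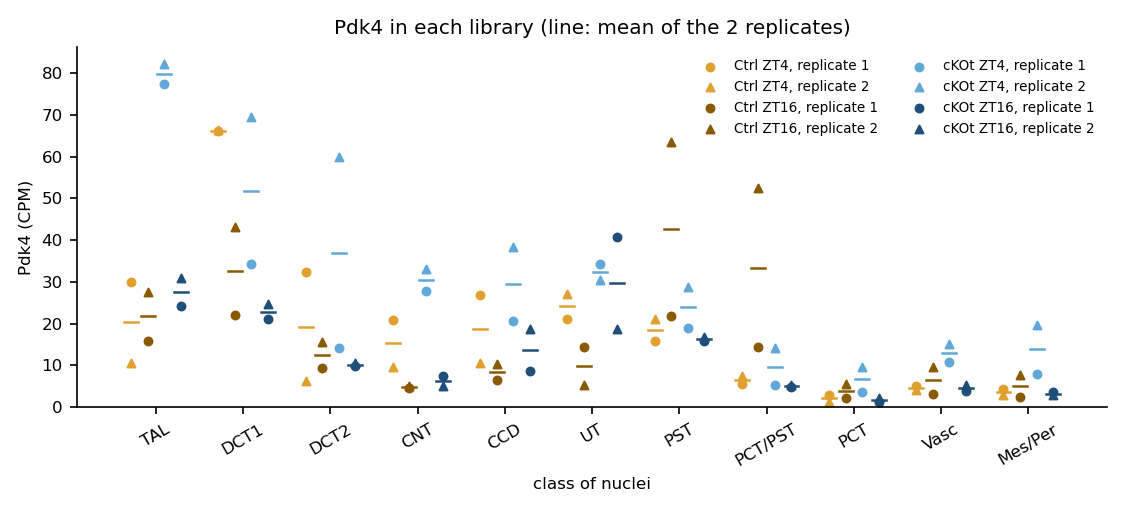
Pdk4 in CPM (y axis, from 0) in 11 classes of nuclei (x axis); points are libraries (circle and triangle for replicates 1 and 2), lines the mean of the 2 replicates, and colours the 4 groups. In TAL both libraries of cKOt ZT4 (77.4 and 82.3) lie above the other 6 (10.6 to 30.9), while in PST the highest point is Ctrl ZT16 replicate 2.

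Vascular cells are not part of the renal tubule, in which Cre was induced. The clock gene Nr1d1 stood there at 30.7 and 39.0 CPM in Ctrl ZT4 and at 33.7 and 43.7 in cKOt ZT4, against 1.75 to 3.93 in the 4 libraries of ZT16. The other clock genes differed more between libraries there. At ZT4 Arntl read 47.5 and 44.4 CPM in Ctrl and 100.4 and 66.5 in cKOt, and Dbp 33.1 and 28.0 in Ctrl and 11.6 and 32.3 in cKOt. At ZT16 Arntl ranged from 98.2 to 122 CPM and Dbp from 2.10 to 4.17 over both genotypes. Of the 8 genes, 0 were called in vascular cells, beside 0.578%, 0.228%, 0.102% and 0.0627% of all genes in the 4 contrasts. At an unadjusted p under 0.05 there were 2, 3, 2 and 1 of 8, beside 9.93%, 8.36%, 5.3% and 3.71% of all genes, and DESeq2 called 0. Pdk4 was low in these cells, at 4.91 and 4.04 CPM in Ctrl ZT4 and 10.8 and 15.0 in cKOt ZT4 (log2 fold change 1.53 ± 0.46, edgeR adjusted p = 0.61). Cd36 ranged from 191 to 314 CPM there. Over all nuclei of a library 0 of 8 were called in each contrast, beside 0.142%, 0%, 0.446% and 0.174% of all genes, with 1, 3, 1 and 2 at an unadjusted p under 0.05 (9.95%, 8.32%, 8.87% and 6.1% of all genes) and 0 by DESeq2. In the test of whether time acts differently in the genotypes 0 of 8 were called in PCT, in PST and over all nuclei, beside 0.0529%, 0% and 0.0183% of all genes, with 1, 2 and 1 at an unadjusted p under 0.05 (4.64%, 3.15% and 4.35% of all genes) and 0 by DESeq2.

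A list of 82 other genes of fatty acid oxidation surrounds these 8. In PCT, edgeR called 0 as higher and 1 as lower at ZT16 than at ZT4 in Ctrl (of 73 tested) and 0 in cKOt (of 75), beside 0.72% and 0.0077% of all genes. In cKOt against Ctrl, 2 were higher and 1 lower at ZT4 (of 75), and 0 were higher and 1 lower at ZT16 (of 73), beside 0.842% and 0.21% of all genes. In PST the counts were 0 called with time in either genotype (0.0499% and 0% of all genes), 2 higher and 2 lower in cKOt at ZT4 (of 74, beside 0.44% of all genes), and 0 higher and 4 lower in cKOt at ZT16 (of 73, beside 0.59%). The median log2 fold change of the list for cKOt against Ctrl at ZT16 was -0.23 in PCT, with 57 of 73 genes below 0, and -0.32 in PST, with 62 of 73 below 0, beside medians of all genes of 0.00355 and 0.0073. At ZT4 it was -0.03 in PCT and -0.14 in PST. Leaving out 1 library moved it at ZT4 from -0.19 (without cKOt ZT4 replicate 2) to 0.05 (without cKOt ZT4 replicate 1) in PCT, so that its sign turned, and from -0.25 (without cKOt ZT4 replicate 2) to -0.04 (without Ctrl ZT4 replicate 2) in PST. At ZT16 the range was -0.31 to -0.19 in PCT and -0.32 to -0.29 in PST. Of the groups of the list, the 17 genes of mitochondrial beta-oxidation had a median of -0.18 in PCT and -0.25 in PST at ZT16, with none called in either class, and the genes of the carnitine shuttle (6 tested) -0.40 and -0.47, likewise with none called. The calls in PCT and PST came from the groups of uptake, binding and activation, of peroxisomal beta-oxidation, of regulators and of thioesterases. Over all proximal nuclei edgeR called 0 genes of the list with time in either genotype (0.321% and 0% of all genes), 2 genes were higher and 4 lower in cKOt at ZT4 (of 77, beside 0.751% of all genes), and 0 were higher and 4 lower at ZT16 (of 77, beside 0.433%, median -0.31). DESeq2 called more of the list there: 2 higher and 3 lower at ZT16 in Ctrl, 0 higher and 2 lower at ZT16 in cKOt, 2 higher and 7 lower in cKOt at ZT4, and 1 higher and 12 lower in cKOt at ZT16. With the block within each time point edgeR called 2 higher and 7 lower in cKOt at ZT4 and 1 higher and 14 lower at ZT16. The shares of all genes called by DESeq2 and with the block are not given here, so these larger counts are no result about the list. In the main test over all proximal nuclei the calls also took in mitochondrial beta-oxidation and the carnitine shuttle. Acadl, which opens the beta-oxidation of long-chain acyl-CoA, was at 93.2 ± 4.05 CPM in Ctrl ZT16 and 40.9 ± 2.75 in cKOt ZT16, 2.23-fold lower (edgeR adjusted p = 0.0397). Slc22a5, the carnitine transporter of the plasma membrane, was 1.93-fold lower in cKOt at ZT4 (edgeR adjusted p = 0.037). Ucp2, a carrier of the inner mitochondrial membrane, was lower at both times, 3.56-fold at ZT4 (edgeR adjusted p = 0.0142) and 6.24-fold at ZT16 (edgeR adjusted p = 0.00434). These 3 genes lie outside the naming rule and were named after their values were seen, and the other calls there were of Acsl1, Acsl3, Acaa1a, Ppard and Angptl4. Each of these 10 calls was lost when at least 1 of the libraries was left out. That of Acadl was lost without any 1 library other than those of cKOt ZT4 (edgeR adjusted p = 0.0652 to 0.414), and that of Slc22a5 without any 1 of the 8 (0.0623 to 0.233). Ucp2 was lost at ZT4 without Ctrl ZT4 replicate 2 or either library of cKOt ZT4 (edgeR adjusted p = 0.0534 to 0.122), and at ZT16 without either library of cKOt ZT16 (0.0626 and 0.0742).

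Angptl4, a PPAR target that inhibits lipoprotein lipase, had the largest fold change of the named calls. At ZT16 it was at 7.76 ± 2.34 CPM (SD, n = 2) in Ctrl and 0.879 ± 0.244 in cKOt in PCT, 8.48-fold lower (edgeR adjusted p = 0.0102), and at 27.4 ± 12.2 and 1.36 ± 0.0916 CPM in PST, 19.2-fold lower (edgeR adjusted p = 0.00994). The levels in cKOt were low, so the size of these folds is uncertain. Leaving out 1 library gave 6.78-fold to 10.4-fold in PCT and 13.8-fold to 23.9-fold in PST. The acyl-CoA synthetases, which activate fatty acids, went in both directions. Acsl1 was higher in cKOt at ZT4, 2.17-fold in PCT (201 ± 29.0 against 443 ± 23.2 CPM, edgeR adjusted p = 0.0137) and 2.83-fold in PST (28.3 ± 3.12 against 82.0 ± 16.8 CPM, edgeR adjusted p = 0.0134). The summed level of the 6 adipocyte markers, none of them at 0, was also higher in cKOt ZT4 in these classes: 5.33 and 7.43 CPM in PCT against 0.632 to 1.69 in the other 6 libraries, and 16.8 and 18.2 CPM in PST against 0.965 to 7.95. Its part in the calls at ZT4 was not tested. Acsl3 was lower in cKOt in PST, 3.22-fold at ZT4 (edgeR adjusted p = 0.0427) and 3.15-fold at ZT16 (edgeR adjusted p = 0.0208).

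The peroxisomal thiolases were lower in cKOt, Acaa1a in PCT at ZT4 (2.08-fold, edgeR adjusted p = 0.0323) and Acaa1b in PST at ZT4 (3.03-fold, edgeR adjusted p = 0.0398) and at ZT16 (3.38-fold, edgeR adjusted p = 0.0248). Both are near copies of each other, so that reads could be split between them. Ppard, which encodes the sister receptor PPAR delta, was higher in cKOt at ZT4 in PST (23.9 ± 1.03 against 172 ± 90.0 CPM, 7.04-fold, edgeR adjusted p = 0.0254). Its fold was 4.39 without cKOt ZT4 replicate 1 and 9.67 without replicate 2 of that group, and the call was lost without either library of Ctrl ZT4 (edgeR adjusted p = 0.217 and 0.209). Acot12, which encodes an acyl-CoA thioesterase, was 1.91-fold higher in PCT of cKOt at ZT4 (edgeR adjusted p = 0.0366). Fabp3, a fatty acid binding protein, fell 3.12-fold from ZT4 to ZT16 in PCT of Ctrl (edgeR adjusted p = 0.0261). The fourth gene lower in PST at ZT16 was Lpin1 (1.95-fold, edgeR adjusted p = 0.0358), which lies outside the naming rule and was named after its values were seen. Each of these 12 calls named by the rule was lost when at least 1 of the libraries was left out, and 7 of them in fits of only the 2 groups compared, whereas DESeq2 lost 0 of the 12. The number of libraries whose absence lost a call ran from 1 (Acsl1 in PCT) to all 8 (Acot12). It was 7 for Acsl3 at ZT4, and 6 each for Acaa1a and for Acaa1b at ZT4. The 13 calls of the list in PCT and PST fell to between 4 and 6 without any 1 library of Ctrl ZT4, Ctrl ZT16 or cKOt ZT16, and were 23 and 24 without replicates 1 and 2 of cKOt ZT4.

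**Figure D4:**
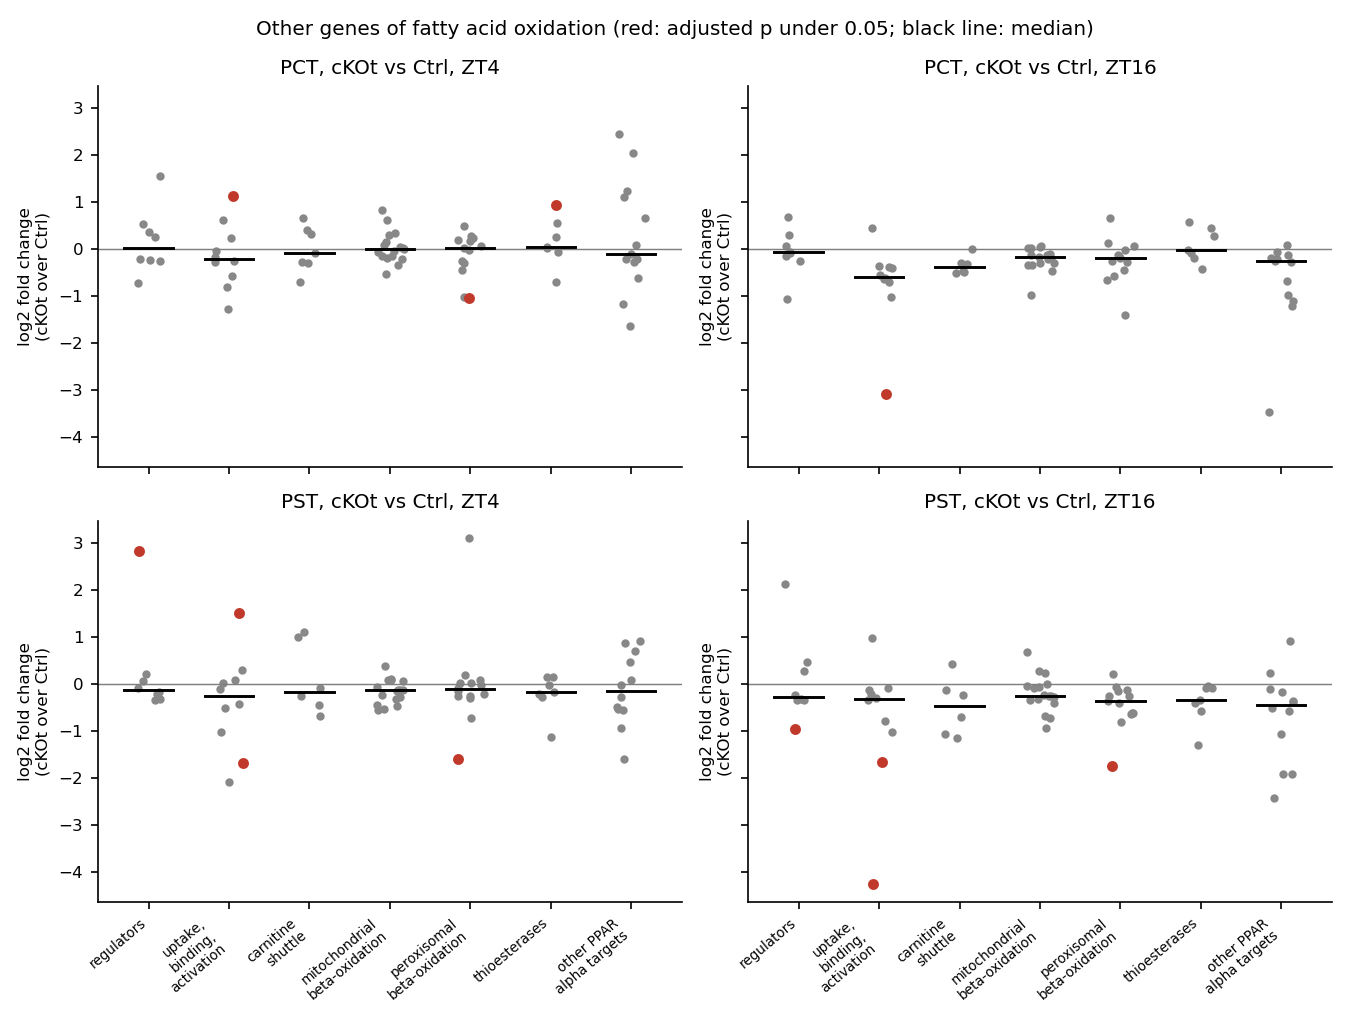
Log2 fold change of cKOt over Ctrl (y axis) for the other genes of fatty acid oxidation, by group of the list (x axis), in PCT (upper) and PST (lower) at ZT4 (left) and ZT16 (right); points are genes, red points have an adjusted p under 0.05 and black lines are medians. At ZT16 the medians of the list lie below 0 (-0.23 in PCT and -0.32 in PST), and Angptl4 is the lowest red point in both.

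Genes whose profile over the 20 classes was most like each of the 8 were picked by Pearson's r of mean log2(CPM + 1) among 12985 genes. The classes share libraries, so r is a description. For Ehhadh they were Slc27a2 (r = 0.968), an acyl-CoA synthetase of very long-chain fatty acids, Ugt3a1 (0.965) and Slc22a2 (0.964). Acadm was nearest to Crot (0.895), the carnitine acyltransferase of peroxisomes, followed by Zfp239 (0.872) and Slc22a26 (0.867). Among the genes most like Cpt2 were Pex14 (0.907), a part of the import machinery of peroxisomes, and Eci2 (0.885), an enoyl-CoA isomerase. For Cpt1a they were Eva1a (0.950), Dlec1 (0.922) and Hdhd2 (0.915), and for Ppara Gphn (0.904), Atxn2 (0.896) and Lin52 (0.896). Cd36 was nearest to Chst7 (0.928), Kif20b (0.894) and BC035947 (0.883). Pdk4 was nearest to Nrtn (0.926), Phb (0.869) and Chp1 (0.859), and Acot1, with few counts, to Ccdc162 (0.867), Arpp19 (0.828) and Zfp280b (0.823).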

How the data were processed

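Counts were deposited as UMI counts per gene and barcode, which the authors made with bcl2fastq 2.20 and Cell Ranger 7.1.0 without normalization, per the labels and the study's methods. The labels name GRCm39 and the methods a 10x Genomics mm10 reference, so positions are given only for the RefSeq promoters (GRCm38.p6). The sources used here do not give whether introns or strand entered the counting. GENCODE served for biotypes, by Ensembl identifier.

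Barcodes under 500 genes, under 800 UMIs or above 2% mitochondrial UMIs were left out. Scrublet (scanpy 1.11.5, expected rate 8%) scored doublets, which were kept. Seurat 5.3.0 clustered the nuclei on 2000 variable protein-coding genes, without the 8 genes and the list, with 1000 principal components, 20 neighbours and resolution 2.2. A cluster was named when the mean z of its markers was at least 1.6, at least 3 markers were 2-fold above the other nuclei and in 10% of its nuclei, and fewer than 50% of its nuclei were doublets; the limit was raised to 1.6 after a lower one had split the proximal clusters between libraries. Classes with at least 10 nuclei in each library were compared.

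Counts were summed per class and library, since nuclei are not replicates. edgeR 4.0.16 (TMM, quasi-likelihood, 4 groups in 1 model, R 4.3.3) tested genes that reached 5 counts in each of the 2 libraries of either group compared, with Benjamini-Hochberg adjustment over all of them. CPM use the summed UMIs of all 21286 protein-coding genes of the files, and the clustering drew its variable genes from 18499 of them. Libraries held 36548873 to 54500820 UMIs. With 2 mice per group, p-values of this model rest on the spread between mice within groups, pooled over the 4 groups and moderated across genes. The SE of an edgeR log2 fold change was taken as its absolute value divided by the square root of the F statistic. Exact sign-flip tests compared classes within the 8 libraries.

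Alternatives were RLE factors, no filter, DESeq2 1.42.0, a replicate block (over all libraries and within each time point), fits of 2 groups, no doublets, 50 principal components, all proximal nuclei in 1 sum and each library left out. Genes named beyond the 8 are, for PCT and PST, each contrast and each direction, up to 3 called genes of the list whose groups did not overlap, taken by p, the 3 genes most like each of the 8, and clock genes as checks. A gene that this rule names is not reported here. The members and lists were chosen with earlier results of these data known. The bulk data of the study were not analysed here.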

Additional observations from a re-analysis of the deposited data

How the results depend on the processing

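The number of calls among the 8 genes over the 4 contrasts was 0 in PCT, with 6 when no filter on low counts was used, 2 with DESeq2 and 0 to 1 with each library left out. In PST it was 0, with 6 without the filter, and in vascular cells 0, with 6. In TAL it was 1, with 3 without the filter, 0 with DESeq2, 2 in fits of only the 2 groups compared and 1 to 3 with each library left out; the added calls were Pdk4 between time points in cKOt and, without the filter or without Ctrl ZT16 replicate 1, Ehhadh with time in Ctrl. Over all proximal nuclei, a sum chosen after seeing the data, it was 0, with 1 by DESeq2. Calls of a time effect that differed between genotypes numbered 0, and 3 without the filter. The fatty acid list had 13 calls in PCT and PST together, 66 without the filter, 34 with DESeq2, and 4 to 24 with each library left out. The shares of all genes called under each alternative are not given here, so these counts have no background beside them. The cause of these shifts was not tested. No value called in the main test changed its direction under the alternatives run. Ehhadh, called without the filter in PST and PCT (with time in Ctrl and between genotypes at ZT16), turned its direction without Ctrl ZT16 replicate 2; with each library left out it ranged in PST from -1.68 to 2.85 and from -1.89 to 2.10 (log2), in PCT from -0.44 to 2.07 and from -1.98 to 0.53. PCT held no cluster past the limit for PST, so leaving such clusters out gave the same sums.

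The labels do not say what libraries of 1 replicate number share. Their deviations from the group means correlated between -0.24 and 0.20 across time points, and between 0.08 and 0.30 within a time point, above 0 in 12 of 12 cases. These cases are not independent, since the same pair of libraries at each time point was taken over overlapping sums of nuclei. Across time points the cKOt pair was also above 0 in each sum (0.089 to 0.196). A pairing within time points was therefore not settled. With the replicate block Pdk4 in TAL had an adjusted p of 0.0266 (edgeR), and 3 of the 12 named calls of the list were lost. A replicate block within each time point, chosen after seeing these correlations, left Pdk4 called in TAL (edgeR adjusted p = 0.00771) and also called Cpt1a and Acot1 as lower in cKOt at ZT16 in PST (edgeR adjusted p = 0.03 and 0.0312) and over all proximal nuclei (0.0465 and 0.0298). The list then had 11 calls between genotypes in PCT and 21 in PST, against 4 and 8 without a block. The share of all genes called with the block is not given here.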
